A study of Mus musculus with 54 samples.

Results

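In cultured mouse B-cell progenitors, 718 intronic regions were open both in wild-type (Wt) cells and in cells without the transcription factor Ebf1, and overlapped no region bound by Ebf1. They were taken from the deposited table of non-promoter regions open in Wt and Ebf1-KO cells. A row was kept where its annotation began with intron and where it shared no base with any of 1172 Ebf1-bound accessible regions. This gave 739 rows, of which 21 repeated another row, and so 718 distinct regions of 3642 in the 4 histone-mark tables and of 4829 in the accessibility table. The regions were thus selected on their openness in both genotypes, on the missing Ebf1 overlap and on their intronic position, and none of these is a result about them. The Wt accessibility signal is bound up with that choice, so only the E2A-KO accessibility, the histone marks, RNA polymerase II (PolII) and the factor peaks are described as measurements.

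Introns carry many of the enhancers of mammalian genes, which are short stretches of open chromatin where transcription factors bind and act on a promoter. H3K4me3 marks active promoters, H3K4me2 marks promoters and enhancers, H3K27ac marks active copies of both, and H3K27me3 is placed by Polycomb repressive complexes on silenced genes. E2A, encoded by Tcf3, and Ebf1 act in sequence to specify the B lineage, Fli1 is an ETS-family factor of blood progenitors, and Ikzf1 (Ikaros) is a zinc-finger factor needed for lymphoid development. Open chromatin at lymphoid genes before commitment is known as priming.

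The cells labelled ProB came from fetal livers of C57BL6/J background and were of Wt, Ebf1-KO or E2A-KO genotype. All were grown on the OP9 stromal line, and the medium held interleukin-7, FLT3 ligand and KIT ligand at 10 ng/ml each. Accessibility was measured by ATAC-seq in Wt (3 labelled samples) and E2A-KO (3 samples). Wt and Ebf1-KO were each profiled by ChIP-seq in 2 samples for H3K27me3, 2 for H3K4me3, 1 for H3K4me2 and 1 for PolII. H3K27ac was profiled by CUT&RUN, which cuts antibody-bound chromatin in permeable cells, in 1 sample of each. Fli1 and Ikzf1 peaks came from 1 Wt library each. Ebf1 binding, the list of accessible regions and the promoter contacts came from the Abelson-transformed progenitor line 230-238, which is a single transformed line. For Ebf1 binding this is known from file names alone, since none of the samples used here is labelled as an Ebf1 ChIP, and binding in the fetal liver cells was not analysed here. The labels give no age, number of pooled fetuses or deleted exons, and gene expression was not analysed here, so the ProB label could not be set against marker transcripts.

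Each genotype was a single column per assay, pooled or from a single library, so no test between genotypes was possible and no p-value is given. Values are tags per region scaled by the authors to 10000000 tags per library. The libraries behind them held 24557525 to 196071042 tags. Intervals beside single values are exact Poisson 95% intervals of the tags and cover counting error only, not differences between cultures or animals. The table regions lie near genes that the file names call enriched in Wt, so all of them come from a set chosen for higher activity in Wt cells.

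Some of the 718 regions reach over a gene start, and for these the sequence just before the start is shown. RefSeq (GRCm38.p6) windows of 250 bases upstream of a start lay wholly inside 51 of the regions, 63 windows in all. Windows of 5 genes are printed 5′ to 3′ on the gene's strand. The regions around the windows of Cxcr4, Gbp7 and Ccdc125 carried both Fli1 and Ikzf1 peaks, though not necessarily inside the window, and those of Hsh2d and 2810429I04Rik had high and low H3K4me3 ratios described later. Capitals mark the Ikaros core TGGGAA on either strand, so that TTCCCA is a copy on the other strand.
Cxcr4: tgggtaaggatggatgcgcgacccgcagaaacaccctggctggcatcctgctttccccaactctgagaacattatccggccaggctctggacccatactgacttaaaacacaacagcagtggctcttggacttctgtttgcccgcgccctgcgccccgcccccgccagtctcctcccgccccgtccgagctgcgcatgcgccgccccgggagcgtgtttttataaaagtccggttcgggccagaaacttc
Gbp7: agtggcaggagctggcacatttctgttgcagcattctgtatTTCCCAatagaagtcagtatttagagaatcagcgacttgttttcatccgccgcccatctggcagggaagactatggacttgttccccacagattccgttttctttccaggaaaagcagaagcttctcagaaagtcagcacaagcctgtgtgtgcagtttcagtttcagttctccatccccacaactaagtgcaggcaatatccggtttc
Ccdc125: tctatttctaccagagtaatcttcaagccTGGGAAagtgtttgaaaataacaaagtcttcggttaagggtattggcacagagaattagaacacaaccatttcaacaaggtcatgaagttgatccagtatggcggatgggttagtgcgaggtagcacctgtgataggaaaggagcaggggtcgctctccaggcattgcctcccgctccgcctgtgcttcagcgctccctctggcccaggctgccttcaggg
Hsh2d: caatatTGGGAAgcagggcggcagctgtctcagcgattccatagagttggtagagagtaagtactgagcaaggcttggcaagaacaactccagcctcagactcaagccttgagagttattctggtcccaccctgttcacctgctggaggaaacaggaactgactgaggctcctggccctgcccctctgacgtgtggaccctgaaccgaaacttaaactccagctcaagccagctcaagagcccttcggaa
2810429I04Rik: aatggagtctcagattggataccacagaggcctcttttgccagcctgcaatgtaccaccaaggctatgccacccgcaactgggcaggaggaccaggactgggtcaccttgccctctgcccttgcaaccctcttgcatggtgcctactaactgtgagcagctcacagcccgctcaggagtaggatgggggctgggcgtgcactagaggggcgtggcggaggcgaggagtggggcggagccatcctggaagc
They lie at chr1:128592300-128592549 (minus strand) for Cxcr4, chr3:142530086-142530335 for Gbp7, chr13:100669231-100669480 for Ccdc125, chr8:72189418-72189667 for Hsh2d and chr13:3477982-3478231 for 2810429I04Rik, the last 4 on the plus strand. TGGGAA stood in 18 of the 63 windows (28.6%) and in 21.6% of all 32851 upstream windows of the same length. The ETS core GGAAGT, searched on both strands, stood in 12 of the 63 windows (19.0%) and in 19.7% of all windows. It was in 11 of 45 windows of regions with a Fli1 peak and in 1 of 18 windows of regions without one. Of the 5 printed windows 3 hold 1 copy of TGGGAA each and none holds GGAAGT, and a match or its absence in such a window says nothing of binding. The longer ETS form CCGGAAGT was in 0 of the 63 windows, and 2.88% of all windows hold it, while GAGGAAGT was in 5 (7.94%) against 2.44%. The other regions could not be read, since no genome of the files' build was used here.

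The regions were short and lay at all distances from gene starts. Their median length was 681.5 bp, from 170 to 2310 bp, and 372 (51.8%) lay in the first intron. By distance to the nearest annotated start, 127 lay within 1 kb, 300 at 1 to 10 kb, 212 at 10 to 50 kb and 79 beyond 50 kb. They were nearest to 543 genes, and in 585 cases the nearest gene was also the gene whose intron held the region. An Ebf1-bound region lay within 10 kb of 241 of them (33.6%) and within 500 bp of 56. The regions just outside the Ebf1 overlap were near Cabp1, Magi3, Lcp1 and Acp5, with gaps of 2, 3, 30 and 31 bp. Of the intronic regions left out for an overlap, the smallest overlap was 175 bp, near Man2a1.

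Without Ebf1, H3K4 methylation stayed close to the Wt level at the typical region, whereas H3K27ac and PolII were lower on the deposited scale. The median log2 ratio of Ebf1-KO over Wt, computed on values plus 1, was 0.05 for H3K4me2, 0.27 for H3K4me3, −0.44 for H3K27ac, −0.34 for PolII and −0.24 for H3K27me3. H3K4me2 was at least 2-fold lower on this scale in 133 regions (18.5%, against 30.3% of all 3642) and at least 2-fold higher in 71 (9.89%, against 7.58%). H3K4me3 was lower in 111 (15.5%, against 25.2%) and higher in 142 (19.8%, against 15.4%). More of the regions thus had raised than lowered H3K4me3, with the reverse over all regions, which include those open in Wt only. This is not particular to the set. H3K4me3 was higher in 163 and lower in 69 of 606 intergenic regions open in both genotypes and without Ebf1. Among 349 such promoter regions it was higher in 61 and lower in 29.

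Lower values were the more frequent direction for H3K27ac and PolII. H3K27ac was at least 2-fold lower in 157 regions (21.9%, against 37.4% of all 3642) and higher in 10 (1.39%, against 1.15%). PolII was lower in 184 (25.6%, against 39.7%) and higher in 83 (11.6%, against 7.03%). H3K27me3 was lower in 54 (7.52%, against 4.67%) and higher in 74 (10.3%, against 16.9%). Its levels were low throughout, with medians of 0.93 tags in Wt and 0.52 in Ebf1-KO, so most of these ratios rest on few tags.

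The direction of the H3K27ac and PolII medians depended on the scaling. TMM scaling, which sets the bulk of the table's regions to no change, moved the median over all regions from −0.70 to −0.01 for H3K27ac, from −0.67 to −0.04 for PolII, from −0.18 to −0.05 for H3K4me2 and from −0.76 to 0.02 for accessibility. Under it the median of the 718 regions was 0.26 for H3K27ac, 0.28 for PolII and 0.18 for H3K4me2. Lower and higher regions then numbered 44 and 81 for H3K27ac (19.5% and 8.26% of all regions), 100 and 192 for PolII (25.7% and 18.4%) and 117 and 106 for H3K4me2 (27.9% and 11.1%). For H3K4me3 they were 120 and 129 (26.6% and 13.4%), and for H3K27me3 58 and 70 (4.94% and 16.3%), close to the deposited scale. Relative to the median of all regions on the deposited scale, the regions stood 0.22 higher for H3K4me2, 0.25 for H3K4me3, 0.26 for H3K27ac and 0.33 for PolII. For H3K27me3 they stood at −0.21. These offsets describe the set, and the shared choice of regions near Wt-enriched genes stands behind both sides.

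**Figure D1:**
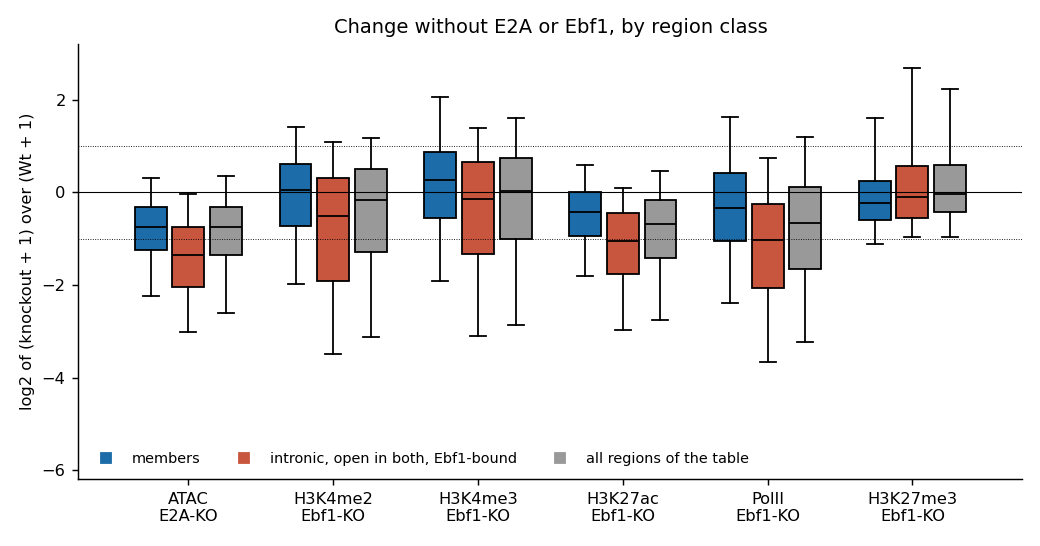
Log2 ratio of knockout over Wt (values plus 1) for the 718 intronic regions without Ebf1 (members), for 373 Ebf1-bound intronic regions open in both genotypes, and for all regions of the table; boxes span the quartiles, lines mark medians and whiskers reach the 5th and 95th percentiles. The members' medians lie above those of the Ebf1-bound regions for accessibility, H3K4me2, H3K4me3, H3K27ac and PolII.

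Ebf1-bound intronic regions open in the same cells had lower ratios for H3K4me2, H3K4me3, H3K27ac and PolII. Over those 373 regions the median log2 ratio was −0.51 for H3K4me2, −0.14 for H3K4me3, −1.05 for H3K27ac and −1.02 for PolII. PolII was at least 2-fold lower in 50.7% of them and H3K27ac in 52.3%, compared with 25.6% and 21.9% of the regions without Ebf1. The 606 intergenic regions open in both genotypes and without Ebf1 had medians of 0.03 for H3K4me2, 0.38 for H3K4me3, −0.38 for H3K27ac and −0.32 for PolII. The 275 intronic regions open only in Wt had medians of −1.36, −0.95, −1.29 and −1.26 for the same 4 marks. Ebf1-bound regions also had more signal in Wt, with a median of 44.2 H3K4me2 tags per kb against 24.2 in the regions without Ebf1. The part of that difference in the ratios was not tested.

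Taking H3K4me2, H3K4me3, H3K27ac and PolII together, 205 of the 718 regions (28.6%, against 24.3% of all 3642) were within 2-fold for all 4. All 4 were lower in 27 regions (3.76%, against 13.7% of all 3642) and all 4 were higher in 4 (0.557%, against 0.247%). At 47 regions (6.55%, against 5.96%) at least 1 mark was lower and another higher. Across the 718 regions the log2 ratios of H3K4me2 and H3K4me3 had a Pearson r of 0.54, those of E2A-KO accessibility and Ebf1-KO PolII 0.55, and those of H3K27ac and H3K27me3 −0.43. These correlations run across regions that share libraries, and the columns differ in depth.

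H3K4me3 levels differed more between distance groups than between genotypes. In regions within 1 kb of a start the median Wt level was 108 H3K4me3 tags per kb and the Ebf1-KO level 132. At 1 to 10 kb the Wt median was 15.7, at 10 to 50 kb 6.83 and beyond 50 kb 8.19 tags per kb. H3K4me2 went from 42.4 tags per kb within 1 kb to 11.4 at 10 to 50 kb in Wt. H3K27ac did not follow that order, with Wt medians of 19.2, 25.6, 18.7 and 24.2 tags per kb from the nearest to the farthest group, and PolII lay between 12.6 and 17.5 in all 4.

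The genotype ratio of H3K4me2 also moved with distance. Its median log2 ratio was 0.55 within 1 kb of a start and −0.07 over the 591 regions farther away. H3K27me3 was at least 2-fold higher in Ebf1-KO in 32 of the 127 regions within 1 kb (25.2%) and in 42 of the 591 others (7.11%). The share was 16.9% over all 3642 and 20.1% over the 349 promoter regions open in both genotypes and without Ebf1. PolII was at least 2-fold higher in 3 of the 127 (2.36%) and in 80 of the 591 (13.5%), against 7.03% of all 3642. The 127 were longer, with a median of 1121 bp against 630 bp. Tags are not divided by length, so short regions with few tags seldom reach 2-fold, and the part of length was not tested.

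**Figure D2:**
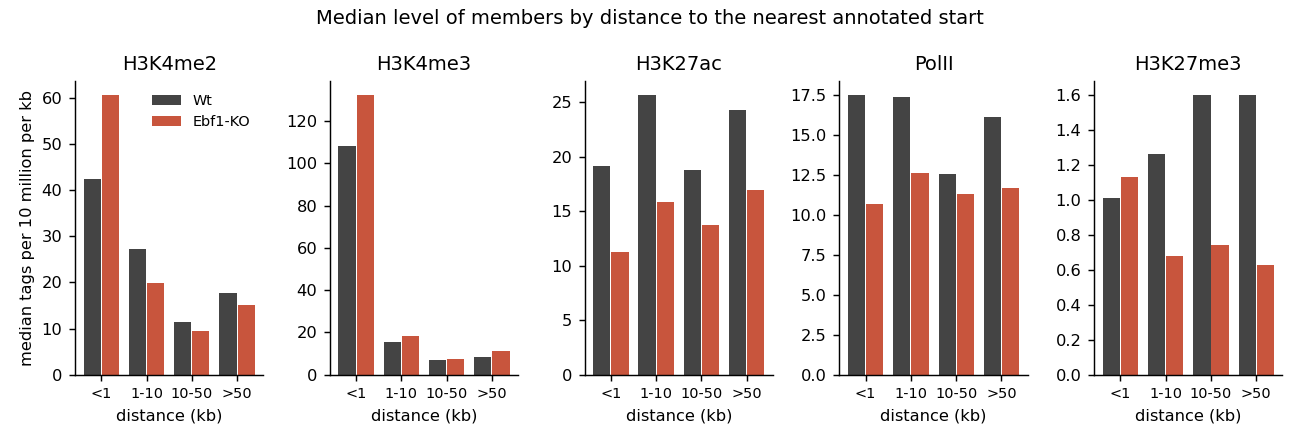
Median tags per 10000000 per kb of the 718 intronic regions in Wt and Ebf1-KO, by distance to the nearest annotated start (127, 300, 212 and 79 regions); each panel has its own scale. H3K4me3 is highest within 1 kb, at 108 in Wt and 132 in Ebf1-KO.

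In E2A-KO cells the regions were less open than in Wt on the deposited scale. The degree was about that of all regions of the accessibility table and below that of the histone-mark tables. The median log2 ratio of E2A-KO over Wt accessibility was −0.75 for the 718 regions, −0.76 for all 4829 and −0.95 for the 3642. Accessibility was at least 2-fold lower in 249 regions (34.7%, against 37.6% of the 4829 and 47.5% of the 3642). It was at least 2-fold higher in 8 (1.11%, against 1.01% and 0.522%). Under TMM scaling the median was 0.08 and these counts were 69 and 48 (9.61% and 6.7%). The shares were then 14.8% and 5.92% of the 4829, and 19.3% and 3.68% of the 3642. The 373 Ebf1-bound intronic regions had a median of −1.35, and 235 of them (63.0%) were at least 2-fold lower. The Wt column of this table is named as a pool of 6 libraries where 3 Wt samples are labelled, and which data defined the regions as open is not given in the sources used here.

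Of the regions with at least 20 tags in either column, the lowest log2 ratio lay in intron 1 of Gm1966 (chr7:106640736-106641376), with 52.0 tags in Wt (48.5 to 55.8) and 3.61 in E2A-KO (2.46 to 5.13), a 14.4-fold difference (10.1 to 21.3). It held a Fli1 peak, and without Ebf1 its PolII went from 52.3 to 6.50 tags while H3K4me2 was 39.6 and 39.1. A region of A630001G21Rik had 27.6 tags in Wt (25 to 30.3) and 1.52 in E2A-KO (0.807 to 2.59). In intron 1 of Spib, which encodes an ETS-family factor of B cells, accessibility was 47.0 tags in Wt (43.6 to 50.5) and 4.90 in E2A-KO (3.53 to 6.62). The intron 2 region of Vav3, a guanine nucleotide exchange factor, had 52.7 tags in Wt (49.1 to 56.4) and 5.01 in E2A-KO (3.63 to 6.75). All 4 of these were far below Wt without E2A. Kcnk10, which encodes a potassium channel, and Syndig1l had regions at 39.0 and 3.38 tags and at 65.9 and 7.00 tags in Wt and E2A-KO. For each of these regions the counting intervals of the 2 genotypes were far apart, and their log2 ratios stayed between −2.78 and −2.20 under TMM scaling. All 6 were picked for the lowest ratios and pass the minimum of 20 tags through Wt alone. Their gap to Wt is thus set by the selection and is no result. All 6 held a Fli1 peak, against 40.4% of the 718, and all but that of Vav3 lay in a first intron, against 51.8%. The minimum favours open regions, and Fli1 peaks lay at 67.2% of the 180 regions with the highest Wt accessibility per kb.

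Higher accessibility without E2A was rare on the deposited scale, with 8 regions, and less so under TMM scaling, with 48. The intron 7 region of Foxred2, a flavoprotein of the endoplasmic reticulum, had 5.72 tags in Wt (4.59 to 7.05) and 27.98 in E2A-KO (24.6 to 31.8). The intron 3 region of Tbc1d4, a GTPase-activating protein for Rab proteins, had 6.37 (5.17 to 7.77) and 20.99 (18 to 24.3). The Ica1 region had 6.63 and 21.2 tags. All 8 regions that were at least 2-fold higher on the deposited scale lay among the 418 with neither a Fli1 nor an Ikzf1 peak. Neither peak was present at 58.2% of the 718 and at 49.9% of all 3642. The peaks came from Wt cells, and Fli1 peaks lay at 22.2% of the 180 regions with the lowest Wt accessibility per kb. The part of low Wt accessibility was not tested. The Foxred2 and Tbc1d4 regions are described again later, since all 4 active marks were also higher at them without Ebf1.

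Fli1 peaks lay at 290 of the 718 regions (40.4%, Wilson 95% interval over regions 36.9 to 44.0) and Ikzf1 peaks at 60 (8.36%, 6.55 to 10.6). Both stood at 50, Fli1 alone at 240, Ikzf1 alone at 10 and neither at 418. Fli1 was present at 83.3% of the regions with an Ikzf1 peak and at 36.5% of those without. Over all 3642 regions the shares were 47.6% for Fli1 and 15.5% for Ikzf1, and over the Ebf1-bound intronic regions 69.7% and 30.0%. The intergenic regions without Ebf1 had 40.9% and 10.9%, and intronic regions open in Wt alone 26.2% and 5.82%. Among regions of 500 to 1000 bp the Fli1 shares were 40.5% without Ebf1 and 66.4% with it, so the gap was also present at like lengths. The peak lists held 27261 Fli1 and 5741 Ikzf1 peaks, each from a single library, and their depth sets how many weak sites were called.

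**Figure D3:**
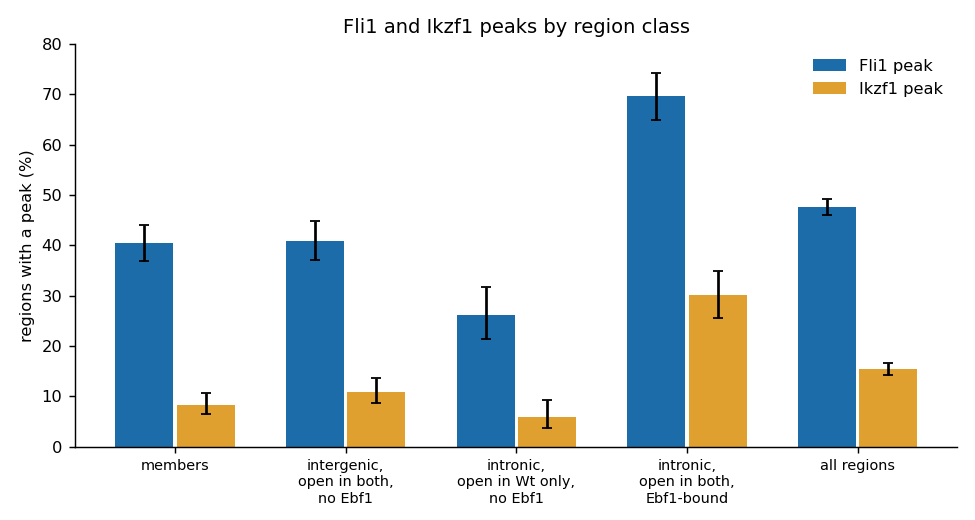
Share of regions (%) with a Fli1 or Ikzf1 peak from Wt cells in 5 region classes, with Wilson 95% intervals over regions; members are the 718 intronic regions without Ebf1. The members' shares are 40.4% and 8.36%, next to 69.7% and 30.0% in the Ebf1-bound intronic regions.

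The highest Fli1 peak scores, which are the authors' own values for each peak, were at Nedd9 (83.8), Cxcr4 (57.2), Gm1966 (57.2), Sdc4 (54.8) and Ets1 (54.8). Nedd9 encodes a docking protein of integrin signalling, and Cxcr4 the chemokine receptor that holds B progenitors in marrow niches. The highest Ikzf1 scores were at Bcl11a (15.3), Gbp7 (13.3), Ets1 (12.9) and Syndig1l (11.0). Bcl11a, a zinc-finger factor needed for B-cell development, had the highest Ikzf1 score with no Fli1 peak at that region. The Ets1 region, in intron 1 of this ETS-family factor, stood near the top of both lists.

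Regions with peaks had lower ratios of E2A-KO over Wt accessibility and were also the more open ones in Wt. The median log2 ratio was −1.38 with both peaks, −0.91 with Fli1 alone, −1.49 at the 10 regions with Ikzf1 alone and −0.54 with neither. When the regions were split into quartiles of Wt accessibility per kb, the median ratio was −0.22 in the lowest, then −0.62, −0.93 and −1.33 in the highest. The Wt value is the denominator of that ratio, so part of this order is built in, and the quartiles are given as a description. The share with a Fli1 peak went from 22.2% in the lowest quartile to 67.2% in the highest. Within quartiles, regions with and without Fli1 had medians of −0.35 and −0.21, −0.70 and −0.58, −0.97 and −0.86, and −1.37 and −1.31.

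**Figure D4:**
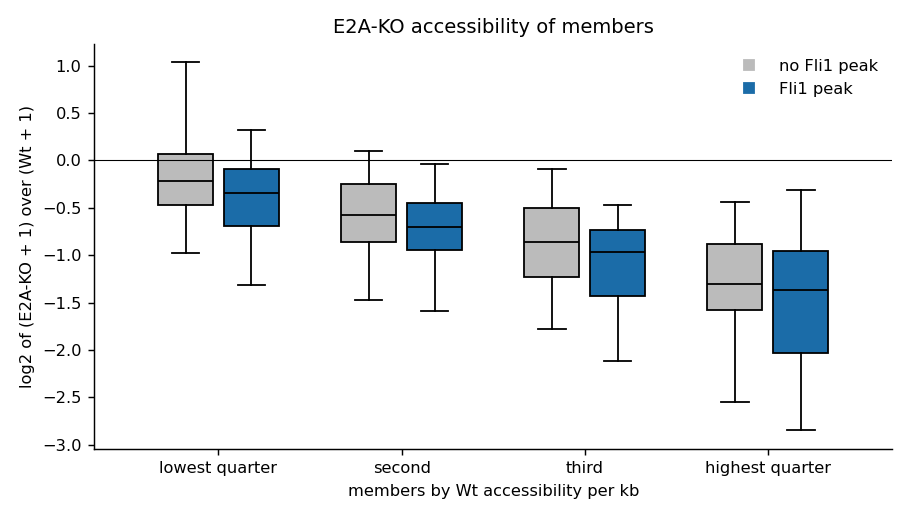
Log2 ratio of E2A-KO over Wt accessibility (values plus 1) of the 718 intronic regions, by quartile of Wt accessibility per kb and by presence of a Fli1 peak; boxes span the quartiles, lines mark medians and whiskers reach the 5th and 95th percentiles. The medians go from −0.35 and −0.21 in the lowest quartile to −1.37 and −1.31 in the highest.

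In Ebf1-KO the gaps between peak classes differed by mark. The median H3K4me3 ratio was 0.27 with both peaks, 0.34 with Fli1 alone and 0.22 with neither, and the H3K27ac medians were −0.55, −0.45 and −0.41. PolII medians were −0.93 with both, −0.40 with Fli1 alone and −0.23 with neither. The 10 regions with Ikzf1 alone had medians of −1.97 for PolII, −1.26 for H3K4me2 (0.02 with neither) and 1.03 for H3K27me3 (−0.21 with neither). PolII was at least 2-fold lower in 24 of the 50 regions with both peaks (48.0%) and in 94 of the 418 with neither (22.5%). The share over all 3642 regions was 39.7%. Under TMM scaling the PolII median was −0.23 with both peaks and 0.40 with neither. The 50 regions had more PolII in Wt, 35.3 tags per kb against 12.4, and the part of that difference was not tested.

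Among the 27 regions where all 4 marks were lower without Ebf1, an intron 2 region of Otub2 (chr12:103396861-103397644) had the lowest H3K4me2 ratio of the regions with at least 20 tags. Otub2 encodes a deubiquitinase. H3K4me2 was 53.7 tags in Wt (46.8 to 61.3) and 1.20 in Ebf1-KO (0.389 to 2.80), and PolII was 52.7 (44.2 to 62.3) and 2.74 (1.18 to 5.39). H3K27ac was 44.6 and 3.33 tags, and accessibility in E2A-KO was 5.48 tags against 47.1 in Wt. The nearest Ebf1-bound region lay 36683 bp away and no Fli1 or Ikzf1 peak was listed there. A second Otub2 region 244 bp from its start had H3K4me2 at 33.0 and 41.0 tags while its H3K27me3 went from 0.50 tags (0.0886 to 1.26) to 12.4 (10.1 to 15.2).

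Phf19 encodes a Polycomb-like subunit of the complex that writes H3K27me3. Its intron 3 region (chr2:34906624-34907649) held both Fli1 and Ikzf1 peaks. H3K4me2 was 69.7 tags in Wt (61.9 to 78.3) and 6.71 in Ebf1-KO (4.46 to 9.70), and PolII was 67.5 (57.8 to 78.3) and 5.13 (2.87 to 8.46). The other Phf19 region, 819 bp from the start, had 36.9 and 52.5 H3K4me2 tags and stayed within 2-fold for all 4 marks. Both Otub2 and Phf19 thus held a region with lower marks in the body of the gene and another near the start where H3K4me2 was not lower.

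Further regions with all 4 marks lower lay in Prep, Blnk, Prkcb, Cd55 and Myof. The intron 6 region of Prep, a prolyl endopeptidase, went from 36.9 H3K4me3 tags in Wt (32.8 to 41.5) to 1.12 in Ebf1-KO (0.703 to 1.70). The intron 4 region of Blnk, the adaptor that links the pre-B-cell receptor to its downstream kinases, went from 70.0 H3K27ac tags (60.0 to 81.3) to 18.3 (13.4 to 24.0). The intron 2 region of Prkcb, a protein kinase C of B-cell receptor signalling, lay 145 bp from an Ebf1-bound region and went from 47.4 H3K4me3 tags (42.6 to 52.5) to 2.50 (1.85 to 3.30). At Myof, a membrane-repair protein, H3K27ac was 36 tags in Wt (29.1 to 44.6) and 1.48 in Ebf1-KO (0.403 to 3.79). In all 5 of these regions accessibility was also at least 2-fold lower in E2A-KO. It was so in 20 of the 27 (74.1%), against 34.7% of the 718, 37.6% of all 4829 and 47.5% of the 3642. Of the 27 regions, 13 held a Fli1 peak (48%, against 40.4% of the 718 and 47.6% of all 3642). An Ikzf1 peak lay at 8 (29.6%, against 8.36% and 15.5%). The 27 were also more open in Wt, with a median of 31.8 accessibility tags per kb against 24.2 for the 718. Ikzf1 peaks lay at 20.0% of the 180 regions with the highest Wt accessibility per kb, and the part of openness was not tested.

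The 4 regions where all 4 marks were higher lay in introns of Mprip, Foxred2, Tbc1d4 and Vps50. At Foxred2 (chr15:77945496-77946348) H3K4me2 was 0.97 tags in Wt (0.265 to 2.49) and 47.2 in Ebf1-KO (40.9 to 54.3), and PolII was 9.36 (6.0 to 13.9) and 53.0 (45.0 to 62.0). At Vps50, a subunit of an endosomal recycling complex, H3K4me3 was 3.52 tags (2.32 to 5.13) and 33.7 (31.1 to 36.3). At Tbc1d4 PolII was 2.34 tags (0.859 to 5.1) and 38 (31.2 to 45.7). H3K27me3 was lower without Ebf1 at all 4, for example 4.08 and 0.06 tags at Vps50. None of the 4 held a Fli1 or Ikzf1 peak, as was so for 58.2% of the 718 and 49.9% of all 3642. The nearest Ebf1-bound region was between 211732 and 4231401 bp away. Accessibility in E2A-KO was at least 2-fold higher in 3 of the 4, against 1.11% of the 718. The exception was Mprip, with 6.05 tags in Wt and 10.0 in E2A-KO.

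**Figure D5:**
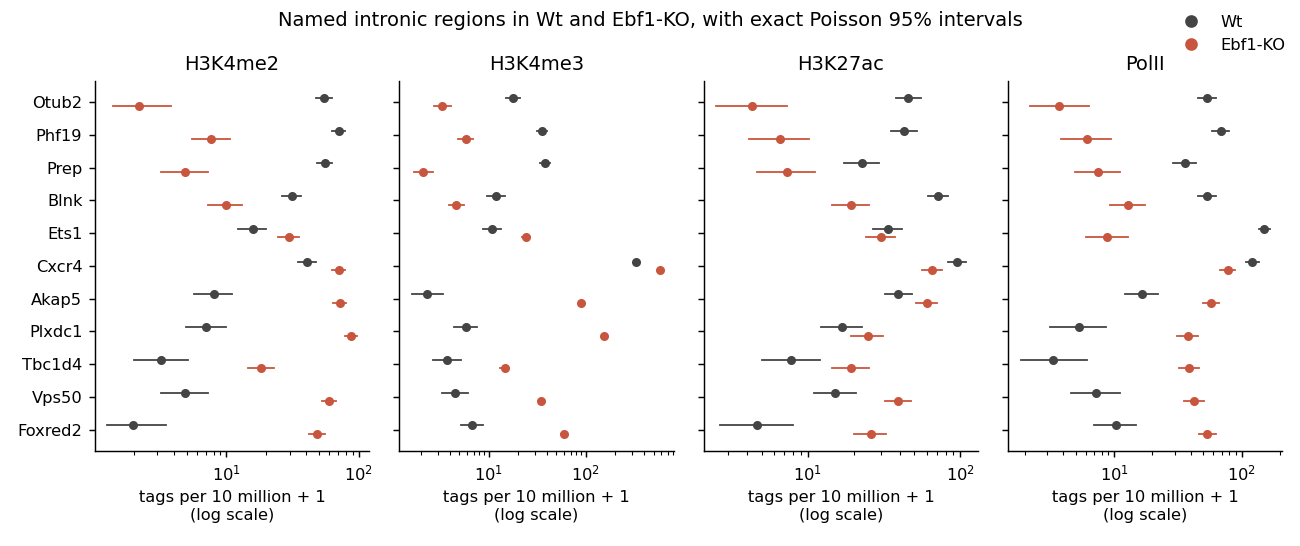
Tags per 10000000 plus 1, on a log scale, in Wt and Ebf1-KO at 11 named intronic regions, with exact Poisson 95% intervals; where a gene holds several regions, the one with the largest summed change is drawn. Otub2, Phf19, Prep and Blnk lie lower in Ebf1-KO for all 4 marks, and Tbc1d4, Vps50 and Foxred2 higher.

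At other regions H3K4me3 was far higher without Ebf1 while H3K27ac stayed within 2-fold on the deposited scale. In intron 27 of Mthfd1, at −5842 bp from the start of Akap5, H3K4me3 was 1.30 tags in Wt (0.626 to 2.40) and 88.3 in Ebf1-KO (84.2 to 92.5). H3K27ac there was 38.3 (30.9 to 46.8) and 59.0 (50.4 to 69.1). In intron 5 of Plxdc1, which encodes a membrane protein with a plexin domain, H3K4me3 was 4.83 tags (3.4 to 6.66) and 152 (147 to 158), with H3K27ac at 15.9 and 23.9. At Hsh2d, an SH2-domain adaptor whose upstream window is printed earlier, H3K4me3 was 4.57 tags (3.18 to 6.35) and 120 (115 to 124) while H3K27ac was 17.7 and 18.7. The counting intervals of H3K27ac overlapped between genotypes at Plxdc1 and Hsh2d but not at Akap5. Under TMM scaling the H3K27ac log2 ratio was 1.37 at Akap5, 1.29 at Plxdc1 and 0.80 at Hsh2d, so it stayed within 2-fold at Hsh2d alone of the 3. PolII was more than 2-fold higher at all 3, for example 4.29 and 36.9 tags at Plxdc1.

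Low H3K4me3 ratios were also found at regions that carried H3K27me3. At 2810429I04Rik, also printed earlier, H3K4me3 went from 88.2 (81.7 to 95.1) to 3.62 (2.83 to 4.57), with H3K27me3 at 7.09 and 23.1. At Lhx2, a LIM-homeobox factor, H3K4me3 was 146 and 13.2 tags and H3K27me3 27.6 and 56.5. Both regions had H3K27me3 in Wt as well, above the median of 0.93 tags.

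PolII was lowest relative to Wt at an intron 1 region of Ets1 (chr9:32705858-32706414), the region with high Fli1 and Ikzf1 scores. It had 150 PolII tags in Wt (135 to 166) and 7.87 in Ebf1-KO (4.99 to 11.8), a 19.0-fold difference (12.5 to 30.4). Its H3K4me2 was 14.8 tags in Wt (11.3 to 19.0) and 28.5 in Ebf1-KO (23.6 to 34.1), and H3K27ac was 32.6 and 29.2. Accessibility in E2A-KO was 7.0 tags (5.34 to 9.0) against 50.1 in Wt (46.6 to 53.7). A second Ets1 region nearby had 28.1 and 6.50 PolII tags and 42.5 and 18.5 H3K4me2 tags, so the regions of this intron differed in H3K4me2 but not in the direction of PolII. The largest PolII ratio in the other direction was at Tapt1, where 1 region had 0 tags in Wt (up to 1.44) and 20.2 in Ebf1-KO (15.4 to 26).

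The H3K27me3 regions described next were taken from the 31 of 718 with at least 10 tags in either genotype. Many of these pass that minimum only through Ebf1-KO, so the direction among them is set by the selection and is no result. The intron 1 region of Akap12, an anchoring protein for protein kinase A, had 0.64 tags in Wt (0.156 to 1.47) and 22.3 in Ebf1-KO (19.1 to 25.8). H3K27ac there went from 33.2 to 2.78 tags and PolII from 51.9 to 2.39, while H3K4me2 was 44.2 and 95.4. Nfia, a nuclear factor I gene, had 0 H3K27me3 tags in Wt (up to 0.528) and 17.8 in Ebf1-KO (14.9 to 21). A region of Cd55, which encodes a complement regulator, had 1.43 (0.687 to 2.63) and 23.2 (20 to 27), and 1 of Kcnk10 had 0.57 (0.156 to 1.47) and 21.9 (18.7 to 25.4). A region of Slc44a1, a choline transporter gene, had the reverse order, with 11 tags in Wt and 4.66 in Ebf1-KO. Akap12 and Nfia thus had H3K27me3 and H3K4me2 higher together, and Cd55 and Kcnk10 had H3K4me2 lower.

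Some listed genes of B-cell identity had a region, and few listed genes of other lineages did. The table was already chosen for Wt-enriched genes, so the lack of other lineages may be set by that choice. The same counts over all regions of the table were not computed, so nothing here sets these regions apart from the table. In a list of 20 pre-B-cell receptor genes, 5 had a region for which they were the nearest gene (Blnk, Cd22, Fcrl1, Pik3ap1 and Prkcb, 1 region each). Of 17 B-lineage factors 7 had 9 regions, of 14 cytokine and surface receptor genes 6 had 9 regions, and of 7 V(D)J recombination genes 2 had a region each. Of 9 cell cycle and survival genes Ccnd3 had 5, of 16 GTPase and signalling genes Prkce had 3, and of 11 chromatin regulators Hdac7 and Smarca4 had 7. None of 14 progenitor factors, 9 T-lineage, 5 natural killer, 5 erythroid or 5 stromal genes had a region. Of 10 myeloid genes only Csf2ra, the alpha chain of the GM-CSF receptor, did, and it stayed within 2-fold for all 5 marks and in E2A-KO accessibility.

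Of these 5 regions, H3K27ac was at least 2-fold lower in 3 with a median ratio of −1.88 (37.4% of all regions were lower), and H3K4me2 in 3 with −1.22 (30.3%). H3K4me3 was lower in 2 (25.2%) and PolII in 2 (39.7%), and H3K27me3 was higher in 2 (16.9%) with a median of 0.86. Pik3ap1, an adaptor to phosphoinositide 3-kinase, had 51.9 H3K27ac tags in Wt (43.5 to 62.0) and 11.8 in Ebf1-KO (8.10 to 16.7), with PolII at 16.4 and 9.58. The Cd22 region, in an inhibitory coreceptor gene, had low marks in both genotypes, with 4.68 and 2.96 H3K27ac tags. E2A-KO accessibility was at least 2-fold lower in 4 of the 5 (37.6% of all regions), with a median of −1.42.

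Of the 9 regions of B-lineage factors, H3K4me2 was at least 2-fold lower in 1 and higher in 3 (30.3% and 7.58% of all regions). H3K27ac was lower in 3 and higher in 0 (37.4% and 1.15%), and PolII lower in 3 and higher in 0 (39.7% and 7.03%), shares near those of all regions. An Irf4 region 164 bp from the start of this interferon regulatory factor gene had 188 H3K4me3 tags in Wt (179 to 198) and 34.9 in Ebf1-KO (32.4 to 37.7). The Bcl11a region had 18.9 H3K4me2 tags (15.0 to 23.6) and 64.7 (57.2 to 72.9), and its H3K27me3 was 0.43 and 3.82. A region of Foxo1, a forkhead factor upstream of the recombinase genes, had 22 and 8.51 H3K27ac tags and 1.72 and 12.3 H3K27me3 tags. The Spib region kept H3K4me3 at 43.7 and 38.5 tags while PolII was 23.4 and 7.87. Ebf1 itself held 2 of the regions, in introns 4 and 6, with 6.56 and 15.3 and with 12.4 and 16.1 H3K4me2 tags. The labels do not give the deleted part of Ebf1, so these values do not check the genotype.

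Surface receptor genes held regions in which marks differed within a gene. In Cd38, an ADP-ribosyl cyclase of B cells, the region 16229 bp from the start had 46.4 PolII tags in Wt (38.5 to 55.6) and 12.3 in Ebf1-KO (8.62 to 17.0). The other, 369 bp from the start, had 2.34 and 6.50 PolII tags and H3K4me3 at 2.61 (1.59 to 4.03) and 17.0 (15.3 to 19.0). In the neighbouring gene Bst1 the region 215 bp from the start had 122 H3K4me3 tags (114 to 130) and 13.3 (11.7 to 15.0). At Cxcr4 H3K4me3 was 331 (318 to 344) and 586 (575 to 596), PolII 121 and 76.6, and E2A-KO accessibility 77.8 against 190 tags in Wt. The region of Dntt, the terminal transferase that adds bases at V(D)J joints, had 22.2 PolII tags (16.8 to 28.8) and 4.1 (2.12 to 7.17). Of the 9 surface receptor regions, H3K27ac was at least 2-fold lower in 4 and higher in 0, near the 37.4% and 1.15% over all regions.

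A few genes were the nearest gene of many regions. Of the 543 nearest genes, 423 had 1 region, 87 had 2, and Arhgef3, Hdac7 and Jakmip1 had 6 each. Counts by host gene differ, since the 5 regions nearest to 2010106C02Rik lay in introns of Prkce, which was itself the nearest gene of 3. The 6 regions of Hdac7, a class IIa histone deacetylase of lymphocytes, had E2A-KO accessibility at least 2-fold lower in 3 and PolII past 2-fold in 0. The 6 regions of Jakmip1 held 5 Fli1 peaks and had PolII lower in 3. In Arhgef3, a guanine nucleotide exchange factor, H3K27ac was lower in 3 of 6 and PolII in 3. The 4 regions of Sgms1, a sphingomyelin synthase, had PolII lower in 3, for example 84.3 tags in Wt (73.4 to 96.3) and 10.6 in Ebf1-KO (7.20 to 15.0) at the region with both peaks. The 5 regions of Ccnd3, the cyclin that drives pre-B-cell proliferation, had a median H3K27ac ratio of 0.40, with 0 regions lower, and PolII lower in 1 and higher in 1. Regions of a gene share their locus and are not replicates. Over all regions, E2A-KO accessibility was at least 2-fold lower in 37.6%, H3K27ac in 37.4% and PolII in 39.7%, and PolII was higher in 7.03%. Fli1 peaks lay at 47.6% of all 3642. With so few regions per gene, these counts are no result about the genes.

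In the Abelson line, H3K4me3-anchored PLAC-seq, which joins proximity ligation to immunoprecipitation, listed 69898 contacts between bins of 5 kb. A contact bin held 626 of the 718 regions (87.2%, 84.5 to 89.4), and 89.0% of all 3642. For 116 of the 718 (16.2%) a partner bin held the start of the host or nearest gene, against 14.9% of all 3642. This was so for 101 of the 291 regions over 10 kb from a start (34.7%). A start in the region's own bin can seldom count as a partner, so part of the gap to 16.2% is built in. The share over other regions beyond 10 kb was not computed. The most contacts were at regions of Btg1 (31), Man1a and Vegfa (27 each), Cd53 and Slc1a5 (25 each) and St8sia4 (24), all within 3272 bp of a start. Btg1 encodes an antiproliferative factor of lymphocytes and Cd53 a tetraspanin of leukocytes. The contacts come from the transformed line and say nothing of looping in the fetal liver cells. All 718 regions also equal a listed accessible region of that line, as do all 4829 of the accessibility table, which was built on it.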

How the data were processed

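Signal in the region tables is HOMER tags within each interval, set by the authors to 10000000 tags per library per the file headers and not divided by length. Header totals gave whole tags back (multiples of 0.5 for H3K27ac and H3K27me3) within 0.1 tag in every interval. Each Fli1 or Ikzf1 peak has a score from the authors' caller, per the file headers. The deposited contact list has a contact count and a q-value, at most 0.05, for each pair of 5 kb bins. Upstream software, per the submitters' processing notes, was HOMER 4.10 and Bowtie2 2.3.5, with Trim Galore 0.6.4 before them. HiC-Pro 2.11.1, MACS2 and build mm10 (GRCm38.p5) are named as well. Of the value columns of the accessibility table, 2 (for Ebf1-KO and Pax5-KO) have no labelled sample and stayed unused.

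Duplicate rows were dropped, overlaps needed 1 bp and ratios used a pseudocount of 1, to which all 2-fold counts refer. Fold ratios carry exact conditional 95% intervals of the tags. TMM factors came from edgeR 4.0.16 (R 4.3.3) on all regions of a table. Ratios and overlaps were computed in Python 3.11.15 with SciPy 1.17.1, and figures drawn with matplotlib 3.10.9. The code was tested on simulated data. The tests planned across replicates could not be run, since each group is 1 column, and nothing says that samples came from separate animals. The regions, gene lists and rules were chosen with earlier results of these data known. The naming rule took, per comparison and direction, the 6 regions with the largest ratios among those with at least 20 tags in either column (10 for H3K27me3), 1 per gene, then the 8 highest peak scores and the genes of the lists. Second regions of named genes, regions of genes with several and regions with all 4 marks past 2-fold were named after their values were seen. Inputs, IgG and factor ChIP in Ebf1-KO were not analysed here. Few tags limit H3K27me3 most. Not every region that met the naming rule is reported here.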

Additional observations from a re-analysis of the deposited data

How the results depend on the processing

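No paired analysis was possible because each group is 1 column, and for the same reason no replicate could be left out. Of 142 alternative values for the main results, 102 were classed as unchanged. Some of these could not have differed, namely those for accessibility in the Abelson line and for matching the accessibility table by overlap. For counts, scaled to the number of regions kept, the limit was 1.5 times. For medians and shares it was the 95% interval of the reported value over regions. Under TMM scaling the median ratios of E2A-KO accessibility, H3K27ac and PolII turned to 0.079, 0.26 and 0.28, that of H3K4me2 was 0.18, and the lower and higher counts became 69 and 48, 44 and 81, and 100 and 192. A pseudocount of 5 gave medians of −0.56 for accessibility, −0.33 for H3K27ac, −0.23 for PolII and −0.065 for H3K27me3. It left 5 regions with higher accessibility. Lower and higher counts with it were 82 and 38 for H3K4me2, 57 and 77 for H3K4me3, 91 and 2 for H3K27ac, 115 and 45 for PolII, and 0 and 27 for H3K27me3.

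Keeping regions with at least 10 tags in either column gave medians of −0.93 for accessibility, 0.38 for H3K4me3, −0.51 for H3K27ac and −0.50 for PolII. It turned H3K27me3 to 2.08, with 1 region lower and 23 higher, a direction that the minimum itself sets, since it keeps regions through the genotype where they are high. Lengths of 500 to 1000 bp gave −0.65 for accessibility with 6 regions higher, and −0.31 for H3K27me3. Over 1 kb from a start, a choice made after seeing the data, H3K4me2 turned to −0.070 and H3K27me3 was −0.28. Peaks scoring at or above the median of their list lay at 23.1% (Fli1) and 4.46% (Ikzf1) of regions, and a region's centre lay in a contact bin for 82.6%. The 72 values of named regions were recomputed only with TMM scaling and with the larger pseudocount. Of these alternative values 86 were classed as changed in size and 58 as unchanged, and none changed direction. A pseudocount cannot turn the direction of a ratio, and the regions were picked for the largest ratios. Their kept direction is thus largely set by the selection and is no result. The planned motif search around region centres was not run, since no genome of that build was used here. Keeping duplicate rows was also added after seeing the data.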
